A study of Mus musculus with 8 samples.

Results

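The interferon regulatory factors (IRFs) were followed through IL-7 withdrawal and miR-15 family inhibition in a mouse pre-B cell line. The members were chosen by name: Irf1, Irf2, Irf3, Irf4, Irf5, Irf7, Irf8 and Irf9 are 8 of the 21339 genes or annotated features tested. They were read by 9 of the 55681 probes on the array. All 8 passed the filter on dim signals, each through 1 probe. The second Irf1 probe was not well above background on any of the 8 arrays and was not tested. All 21339 are called genes below, and they include features without a gene symbol. On the whole array 24283 of the 55681 probes matched no reference gene, 16194 of them named by coordinates.

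Expression was measured in wk3 cells, a pre-B line labelled SLP-65-/-, which lacks an adaptor protein of pre-B cell receptor signalling. A microRNA sponge is a transcript with binding sites that hold a microRNA family away from its other targets. All cells carried a retroviral vector and had been selected with puromycin: the scrambled sponge was the control, and the miR-15 sponge was designed against the whole miR-15 family. The 4 groups were scrambled or miR-15 sponge cells, each in an excess of IL-7 or 36 h after its withdrawal, which in the study serves to start pre-B differentiation. The groups therefore share the SLP-65 deletion, the vector backbone and the drug selection, and all come from 1 cell line. Each group held 2 arrays, from separate experiments with independently made clones, and this number limits the precision of every value. In bulk RNA, fewer cells of a type and less RNA per cell cannot be told apart.

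IRFs share a DNA-binding domain that reads GAAA repeats. IRF3, IRF5 and IRF7 are activated downstream of receptors for microbial nucleic acids and switch on type I interferon. IRF9 gives DNA binding to the complex that answers the type I interferon receptor, IRF1 activates and IRF2 largely restrains interferon-responsive promoters. IRF4 and IRF8 are the lymphoid and myeloid members: with the ETS factors PU.1 and Spi-B they bind immunoglobulin light chain enhancers, and together they are needed for pre-B cells to leave the cycling stage.

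The sponge acts on microRNAs that share a seed, the bases at positions 2 to 8 that pair with a target. The 6 mature mouse sequences named as its targets, from RefSeq (GRCm38.p6), are shown because they define what the construct was built to hold, with the seed in capitals.

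miR-15a-5p: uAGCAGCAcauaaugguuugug
miR-15b-5p: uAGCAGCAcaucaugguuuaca
miR-16-5p: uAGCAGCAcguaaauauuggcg
miR-195a-5p: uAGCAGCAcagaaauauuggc
miR-322-5p: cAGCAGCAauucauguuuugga
miR-497a-5p: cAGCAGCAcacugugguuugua

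The seed read AGCAGCA in all 6, and the sequences part after it. The activity of these microRNAs was not measured on this array, and full IRF transcripts were not searched for seed matches here. Among the 60-base probes alone, GCTGCT, which pairs with seed positions 2 to 7, was in the Irf3 probe and in none of the other 8, against 2.18% of all probes.

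Promoter sequence was at hand for all 8 members, as the window from 250 bases before to 50 bases after each RefSeq transcript start (GRCm38.p6). The 3 motifs searched on both strands were GAAA-NN-GAAA (the interferon-stimulated response element, ISRE), TTCNNNGAA (the STAT element, GAS) and GGAA-NN-GAAA (the composite ETS and IRF element, EICE), where N is any base. The part upstream of the start is printed for the 3 members that held a match, and for Irf4, the member with the largest change on withdrawal, which held none. Each is given 5′ to 3′ on the plus strand, which is the strand of these 4 genes, with matches in capitals; Irf1 and Irf8 have 2 such windows, and the one with a match is shown.

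Irf1, chr11:53769764-53770013: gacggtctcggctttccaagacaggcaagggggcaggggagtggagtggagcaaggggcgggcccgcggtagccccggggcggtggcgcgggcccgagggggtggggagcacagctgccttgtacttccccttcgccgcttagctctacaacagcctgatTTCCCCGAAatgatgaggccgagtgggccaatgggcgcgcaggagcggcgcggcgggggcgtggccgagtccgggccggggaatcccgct
Irf2, chr8:46739495-46739744: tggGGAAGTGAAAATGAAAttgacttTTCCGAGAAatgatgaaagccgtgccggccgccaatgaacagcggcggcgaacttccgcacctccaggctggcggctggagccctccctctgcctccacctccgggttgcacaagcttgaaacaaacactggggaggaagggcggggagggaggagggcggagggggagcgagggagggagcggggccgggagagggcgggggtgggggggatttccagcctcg
Irf4, chr13:30748983-30749232: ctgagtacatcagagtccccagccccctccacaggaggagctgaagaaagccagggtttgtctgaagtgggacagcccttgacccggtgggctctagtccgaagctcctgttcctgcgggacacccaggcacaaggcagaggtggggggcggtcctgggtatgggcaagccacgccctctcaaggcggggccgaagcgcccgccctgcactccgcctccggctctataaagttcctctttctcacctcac
Irf8, chr8:120736108-120736357: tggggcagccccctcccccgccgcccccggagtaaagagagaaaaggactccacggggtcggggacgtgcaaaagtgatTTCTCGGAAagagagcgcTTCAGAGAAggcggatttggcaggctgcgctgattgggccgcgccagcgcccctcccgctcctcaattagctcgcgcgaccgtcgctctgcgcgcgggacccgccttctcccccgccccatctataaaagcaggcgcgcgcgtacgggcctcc

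Irf1 held 1 GAS match, TTCCCCGAA, starting 90 bases before the start site. Irf2 held GGAAGTGAAA at 247 bases, which overlaps GAAAATGAAA at 241 bases, and TTCCGAGAA at 224 bases. Irf8 held TTCTCGGAA at 171 bases and TTCAGAGAA at 153 bases. Of all 27025 genes with such windows, 9.55% held GAS, 3.99% the ISRE and 3.16% the EICE. GAS letters were thus in 3 of 8 members and the other motifs in 1 of 8, a description of these windows only.

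Levels below are log2 of the scanner signal relative to the array's own 75th percentile, so 1 unit is a doubling, and they are compared between arrays for 1 probe at a time. A change is the difference of 2 group means on that scale, with its standard error (SE), and a gene was called at a limma p under 0.05 after Benjamini-Hochberg adjustment over all 21339 genes. On the 8 arrays 50.6% to 56.6% of spots were well above background. Replicate 1 of scrambled cells with IL-7 had the lowest share and 277 outlier spots, against 128 to 149 on the others. Its 75th percentile signal was also the lowest, at 297 against 349 to 410. All lay on 1 slide, where the column followed IL-7 and the row followed the construct, so slide position cannot be told apart from either. Scrambled cells with IL-7 had the widest replicates, with 1169 genes over 1 log2 unit apart against 193 to 520 in the other groups. Pre-B identity held by its markers, with 12 of 12 well above background on all 8 arrays. So were 3 of 8 T cell markers (Cd3e, Cd4 and Lck), 5 of 12 myeloid and 4 of 9 dendritic cell markers, with Siglech at group means of 7.21 to 7.42. The T cell markers Cd3g, Cd8b1 and Cd2, the myeloid markers Ly6g, Cebpa and S100a9, and the dendritic cell markers Itgax, Xcr1 and Cd209a were not well above background on any array.

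IL-7 withdrawal raised 5 of the 8 IRF genes in scrambled cells: Irf4, Irf9, Irf5, Irf1 and Irf3. In sponge cells 4 of 8 rose, Irf4, Irf9, Irf5 and Irf1, and no member was called lower in either construct. The background was high, since 48.0% of all genes were called in scrambled cells, 20.7% higher and 27.4% lower. In sponge cells it was 23.1%, 7.90% higher and 15.2% lower. The median change over the 8 members was 0.56 in scrambled and 0.30 in sponge cells, against -0.02 and -0.06 over all genes. Without the adjustment, a limma p under 0.05 was reached by 0 members on the lower side in scrambled cells and by 1, Irf8, in sponge cells. In scrambled cells 6 of 8 members had arrays that did not overlap between the conditions, as did 16007 of all 21339 genes, so the members were at the background share. For the sponge it was 8 of 8, against 65.9% of all genes, with Irf8 lower and the other 7 higher. The count for scrambled cells was 4 or 5 when any 1 array was left out, while that for sponge cells fell to 2 without any 1 of the 4 sponge arrays.

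**Figure D1:**
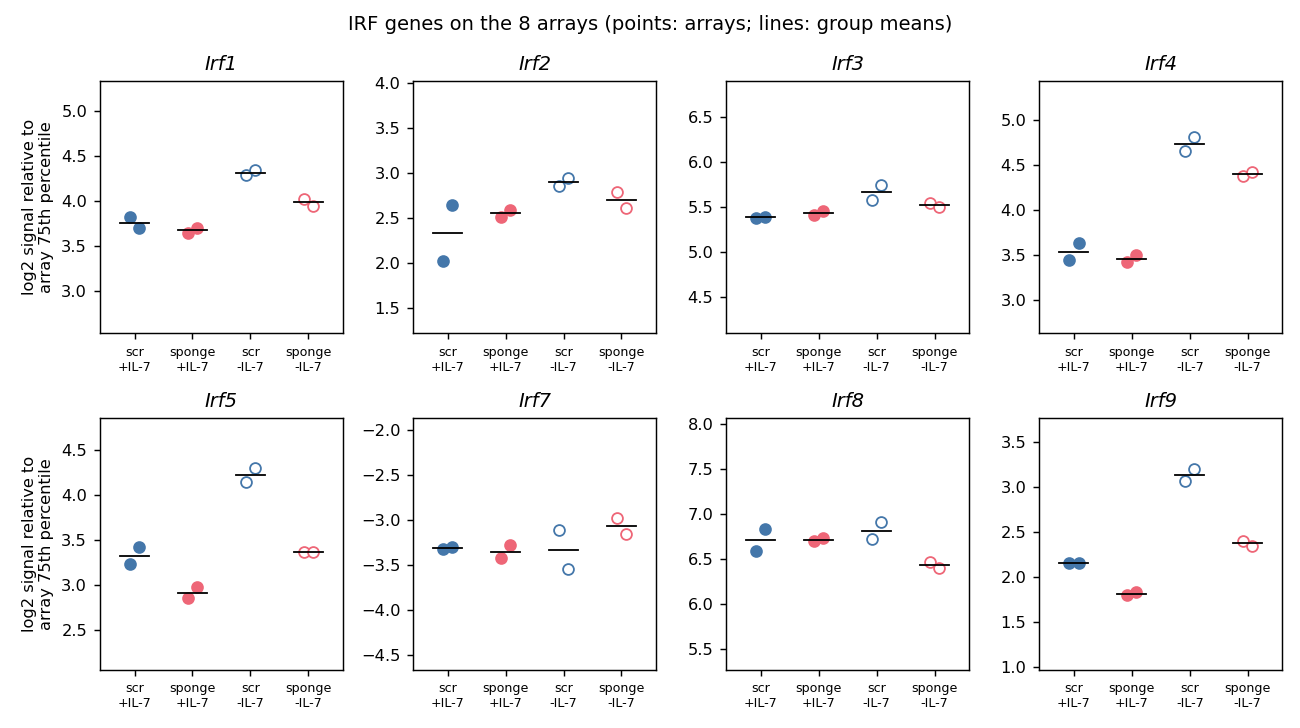
Log2 level of each IRF gene relative to the array's 75th percentile (vertical axis, 1 panel per gene, same span in each panel) in the 4 groups. Points are the 2 arrays of a group and bars their mean. Every member but Irf7 has its highest group mean in scrambled cells without IL-7. The 8 values of Irf3 lie between 5.38 and 5.75.

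Irf4 showed the largest change of the family on withdrawal. Its probe (mm9 chr13:30858532-30858591, plus strand) read 3.44 and 3.63 in scrambled cells with IL-7 and 4.66 and 4.82 without. In sponge cells it read 3.42 and 3.50 with IL-7 and 4.38 and 4.42 without. The arrays with and without IL-7 were far apart in both constructs, and with IL-7 the constructs overlapped. The level rose by 1.20 ± 0.10 (SE) in scrambled cells, or 2.30-fold (adjusted p = 0.000476), and by 0.94 ± 0.10, or 1.92-fold, in sponge cells (adjusted p = 0.00384). By size of rise it was number 1009 of all genes in scrambled cells and 565 in sponge cells. Both rises were called with each of the 8 arrays left out in turn. Without IL-7, Irf4 was lower in sponge cells by 0.34 ± 0.10 (adjusted p = 0.0488), 1.26-fold, with no overlap. That call held in 2 of the 8 fits that left out an array, those without an array of scrambled cells with IL-7, and the adjusted p ran from 0.0370 to 0.223.

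Irf8, the partner of IRF4 in pre-B cells and a factor that also directs myeloid and dendritic cell fate, was not called on withdrawal in either construct. Its probe (mm9 chr8:123280324-123280383, plus strand) read 6.60 and 6.84 in scrambled cells with IL-7 and 6.72 and 6.91 without. The sponge arrays read 6.70 and 6.74 with IL-7 and 6.47 and 6.40 without. The scrambled arrays overlapped between the conditions, and the pair of sponge cells without IL-7 was the lowest of the 4 groups. The withdrawal change in scrambled cells was 0.10 ± 0.11 (adjusted p = 0.498), with a 95% interval of -0.18 to 0.37. In sponge cells it was -0.28 ± 0.11 (adjusted p = 0.127). Both depended on the scaling between arrays: with quantile normalization the change was 0.51 in scrambled cells, which passed the test (adjusted p = 0.0112), and 0.14 in sponge cells, with its sign turned. Without IL-7, Irf8 was lower in sponge than in scrambled cells by 0.38 ± 0.11 (adjusted p = 0.0472), or 1.30-fold. It held in 2 of 8 fits without an array, those that left out scrambled cells with IL-7 (adjusted p 0.0291 to 0.217 over all 8). With normexp background correction the change was -0.39 and the adjusted p 0.161.

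Irf5 and Irf9 showed the largest differences between the constructs in the family, both with and without IL-7. IRF5 acts downstream of Toll-like receptors in B and myeloid cells. Its probe (mm9 chr6:29486901-29486960, plus strand) read 3.24 and 3.43 in scrambled cells with IL-7 and 4.15 and 4.30 without. Sponge cells gave 2.86 and 2.98 with IL-7 and 3.38 and 3.37 without. Scrambled cells without IL-7 stood clear above the rest, and sponge cells without IL-7 lay within the range of scrambled cells that still had it. Irf5 rose on withdrawal by 0.90 ± 0.10 in scrambled cells, 1.86-fold (adjusted p = 0.00110), and by 0.45 ± 0.10 in sponge cells, 1.37-fold (adjusted p = 0.0268). The second call was lost without any 1 of the 4 sponge arrays, with an adjusted p of 0.0248 to 0.117 over the 8 fits. Without IL-7 Irf5 was 1.81-fold lower in sponge cells, a change of -0.85 ± 0.10 (adjusted p = 0.00240).

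Irf9 encodes the DNA-binding part of the complex formed after interferon binds its receptor. Its probe (mm9 chr14:56228806-56228865, plus strand) read 2.16 on both arrays of scrambled cells with IL-7 and 3.07 and 3.21 without. For sponge cells the values were 1.80 and 1.83 with IL-7 and 2.40 and 2.35 without. No groups overlapped, and the order from low to high was sponge with IL-7, scrambled with IL-7, sponge without and scrambled without. Irf9 rose by 0.98 ± 0.08 in scrambled cells, 1.97-fold (adjusted p = 0.000406), and by 0.56 ± 0.08 in sponge cells, 1.48-fold (adjusted p = 0.00647). Without IL-7 it was 1.69-fold lower in sponge cells, a change of -0.76 ± 0.08 (adjusted p = 0.00158). The difference between constructs for Irf5 and Irf9 without IL-7, and the rise of both in scrambled cells, were called with each of the 8 arrays left out in turn.

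Markers of other cell types were read beside these values. Of all genes, 20.7% were called higher and 27.4% lower on withdrawal in scrambled cells, and 7.90% and 15.2% in sponge cells. For the sponge without IL-7 it was 16.7% higher and 15.3% lower. Of 12 myeloid markers 7 passed the filter, with a median change of -0.07 on withdrawal in scrambled cells and -0.22 in sponge cells. In scrambled cells 2 were called higher, the integrin gene Itgam (0.61, adjusted p = 0.0423) and the Fc receptor gene Fcgr3 (0.88, 0.000704), and 1 lower, the lysozyme gene Lyz2, which was well above background on 2 of the 8 arrays. Fcgr3 was also called on withdrawal in sponge cells (0.68, 0.00561) and for the sponge with IL-7 (-0.69, 0.0346) and without it (-0.89, 0.00149). Lyz2 was called lower on withdrawal in sponge cells as well (-2.18, 0.0104). The remaining markers that passed, Csf1r, Mpo, Elane and Adgre1, were not called in any comparison. The summed linear level of the 7 that passed, to which Itgam gave most, was 18.1 to 23.2 in scrambled and 15.2 to 19.4 in sponge cells with IL-7. Without IL-7 it was 30.8 to 31.1 and 19.7 to 20.6. Of 9 dendritic cell markers 5 passed the filter, and 2, the receptor genes Flt3 and Ccr7, were called in the same directions as Irf5 and Irf9. Flt3 rose by 1.67 (0.000910) and 1.37 (0.00588) on withdrawal in scrambled and sponge cells and was at -1.20 (0.00489) for the sponge without IL-7. For Ccr7 the values were 0.97 (0.000602), 0.78 (0.00442) and -0.74 (0.00254). The others that passed, Siglech, Zbtb46 and Bst2, were not called in any comparison. In the same order, Bst2 was at -0.09, -0.29 and 0.17, opposite to Irf5 and Irf9 each time. Siglech was at 0.13, -0.03 and -0.21, and Zbtb46 at 0.47, 0.19 and -0.01. The summed dendritic level, most of it Siglech, ranged from 137 to 189 before withdrawal and from 151 to 183 after it. Of 3 T cell markers that passed, Lck was called higher (0.31, 0.0134) and Cd3e lower (-0.33, 0.0293) on withdrawal in scrambled cells. For the sponge without IL-7, Lck was called lower (-0.69, 0.00162), while Cd3e at 0.08 and Cd4 at -0.05 were not called. The summed T cell level was 19.3 to 19.6 in scrambled cells without IL-7 and 13.5 to 17.6 in the other groups. Of the NK and erythroid markers, 3 of 7 and 2 of 7 were well above background on all arrays. Among the 3 NK and 4 erythroid markers that passed, 1 of each was called higher and 1 lower on withdrawal in scrambled cells. In sponge cells 0 of each were called higher and 1 lower, and 0 were called for the sponge without IL-7. The part of other cells in the IRF values was not tested.

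Irf1, a short-lived activator that is itself induced by interferon, rose in both constructs. Its probe (mm9 chr11:53590746-53590805, plus strand) read 3.81 and 3.69 in scrambled cells with IL-7 and 4.28 and 4.34 without. On the sponge arrays it stood at 3.64 and 3.70 before withdrawal, 4.02 and 3.94 after it. The conditions did not overlap in either construct, and with IL-7 the constructs did. The rise was 0.56 ± 0.08 in scrambled cells, 1.47-fold (adjusted p = 0.00249), and it was called with each array left out. In sponge cells it was 0.31 ± 0.08, 1.24-fold (adjusted p = 0.0401), but the adjusted p was 0.0594 with the replicate number as a block. That call held only in the 2 fits without an array of scrambled cells with IL-7 (0.0400 to 0.159 over the 8). Without IL-7, Irf1 was lower in sponge cells by 0.33 ± 0.08 (adjusted p = 0.0249), a call lost without any 1 of the 4 arrays lacking IL-7 (0.0250 to 0.131).

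Irf2, whose product competes with IRF1 for the same DNA element, was the least even member. Its probe (mm9 chr8:47932486-47932545, plus strand) read 2.03 and 2.65 in scrambled cells with IL-7 and 2.86 and 2.95 without. In sponge cells it read 2.52 and 2.60 with IL-7 and 2.79 and 2.61 without. Replicate 1 of scrambled cells with IL-7 stood below the other 7 arrays. The withdrawal change was 0.57 ± 0.20 in scrambled cells (adjusted p = 0.0645) and 0.14 ± 0.20 in sponge cells (adjusted p = 0.672). The change in scrambled cells passed the limma test in 6 of the 10 alternatives that kept all arrays. Among these were quantile normalization (0.70, adjusted p = 0.0276), normexp (0.78, 0.0498) and the deposited table (0.69, 0.0307). When replicate 2 of scrambled cells with IL-7 was left out, which leaves the low array alone, the change was 0.88. Without replicate 1 it was 0.25.

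Irf3, the constitutively made factor that is switched on by phosphorylation, moved little. Its probe (mm9 chr7:52257700-52257759, plus strand) read 5.38 on both arrays of scrambled cells with IL-7 and 5.57 and 5.75 without. The sponge arrays read 5.41 and 5.45 with IL-7 and 5.54 and 5.50 without. The conditions did not overlap, and its 8 values spanned 5.38 to 5.75. The rise of 0.28 ± 0.08 in scrambled cells, 1.21-fold (adjusted p = 0.0351), was called in 1 of the 8 fits without an array, that without replicate 1 of scrambled cells lacking IL-7 (0.0343 to 0.170). The size of this rise depended on the scaling between arrays. With normexp background correction it was 0.22 (adjusted p = 0.0663), and with quantile normalization 0.63 (adjusted p = 0.00166). In sponge cells the change was 0.09 ± 0.08 (adjusted p = 0.484), and with quantile normalization 0.38 (adjusted p = 0.0270).

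Irf7, which amplifies type I interferon and is itself an interferon-stimulated gene, stayed dim on all 8 arrays. Its probe lies over mm9 chr7:148450664-148451014 on the minus strand, a 60-base sequence across a span longer than itself. It read -3.32 and -3.30 in scrambled cells with IL-7 and -3.11 and -3.54 without. Sponge cells gave -3.42 and -3.27 with IL-7 and -2.97 and -3.15 without. The scrambled arrays overlapped between conditions, and both sponge arrays without IL-7 were above both with it. The withdrawal change was -0.02 ± 0.16 in scrambled cells (95% interval -0.40 to 0.37, adjusted p = 0.936) and 0.29 ± 0.16 in sponge cells (-0.10 to 0.67, adjusted p = 0.244). Neither passed the test, and the intervals hold changes in both directions.

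**Figure D2:**
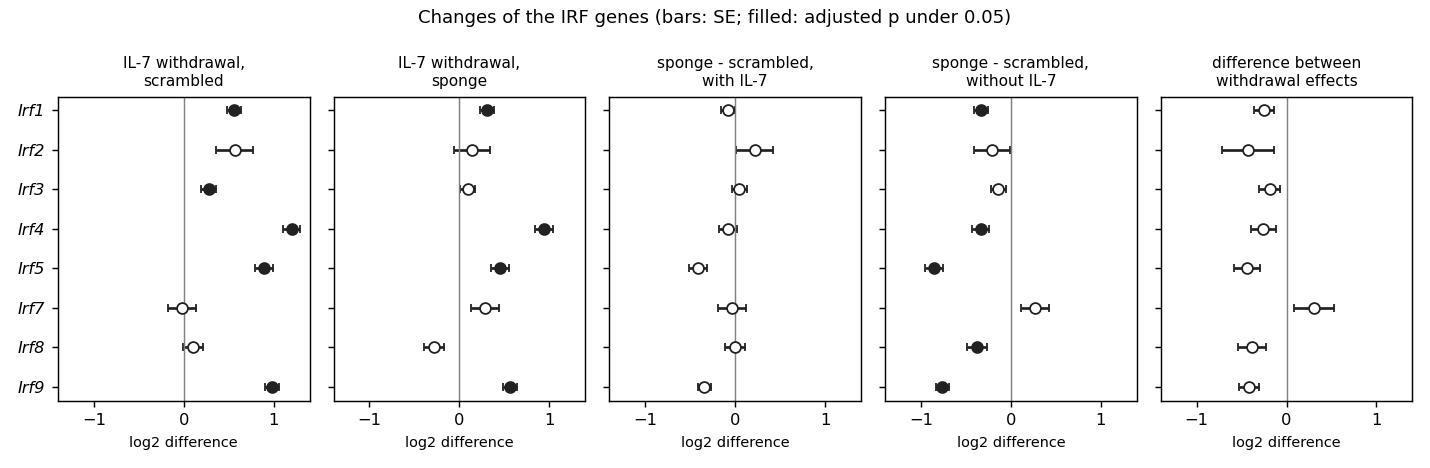
Log2 change of each IRF gene in the 5 comparisons (horizontal axis, 1 panel per comparison), with bars for the SE of the limma fit and filled points for an adjusted p under 0.05. Irf4, Irf5 and Irf9 lie farthest right for withdrawal in scrambled cells (1.20, 0.90 and 0.98), and Irf5 and Irf9 farthest left for the sponge without IL-7 (-0.85 and -0.76).

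With IL-7 present, 0 of 8 members were called between sponge and scrambled cells, where 1.13% of all genes were, 0.314% higher and 0.815% lower. An unadjusted limma p under 0.05 was reached by 2, Irf5 at -0.41 ± 0.10 (adjusted p = 0.124) and Irf9 at -0.34 ± 0.08 (adjusted p = 0.106). Both had their sponge arrays below both scrambled arrays. With Irf3, whose sponge arrays were above, 3 of 8 members had no overlap, against 50.6% of all genes. The other 6 changes lay between -0.08 and 0.22. For Irf8 the change was 0.0002, with a 95% interval of -0.27 to 0.27.

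Without IL-7, 5 of 8 members were lower in sponge cells and 0 higher, by the adjusted test and without adjustment alike: Irf5, Irf9, Irf8, Irf4 and Irf1. The background was 32.1% of all genes, 15.3% lower and 16.7% higher. The median over the members was -0.33, against -0.05 over all genes, and 7 of 8 had arrays that did not overlap, against 72.7% of genes. The remaining changes were -0.21 for Irf2 (adjusted p = 0.491), -0.14 for Irf3 (0.248) and 0.27 for Irf7 (0.249). The count fell to 2, Irf5 and Irf9, without any 1 of the 4 arrays lacking IL-7, and to 3 without either array of sponge cells with IL-7. This comparison and withdrawal in scrambled cells share the scrambled arrays without IL-7. When limma was fitted and adjusted over all 30987 kept probes instead of genes, Irf4 (adjusted p = 0.0551) and Irf8 (0.0524) were not called for the sponge without IL-7. Irf5, Irf9 and Irf1 still were.

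Whether withdrawal acted differently in the 2 constructs was tested as the difference of the withdrawal changes, and 0 of 8 members were called, where 5.27% of all genes were, 4.32% higher and 0.951% lower. An unadjusted p under 0.05 was reached by 2 members: Irf9 at -0.42 ± 0.11 (adjusted p = 0.0874) and Irf5 at -0.44 ± 0.14 (adjusted p = 0.141). The sign was negative for 7 members, meaning less rise or more fall in sponge cells, and positive for Irf7 at 0.30. The rise in sponge cells was 50.6% of that in scrambled cells for Irf5, 55.6% for Irf1, 57.3% for Irf9 and 78.6% for Irf4, without a called difference. With quantile normalization Irf9 was called at -0.49 (adjusted p = 0.0436).

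**Figure D3:**
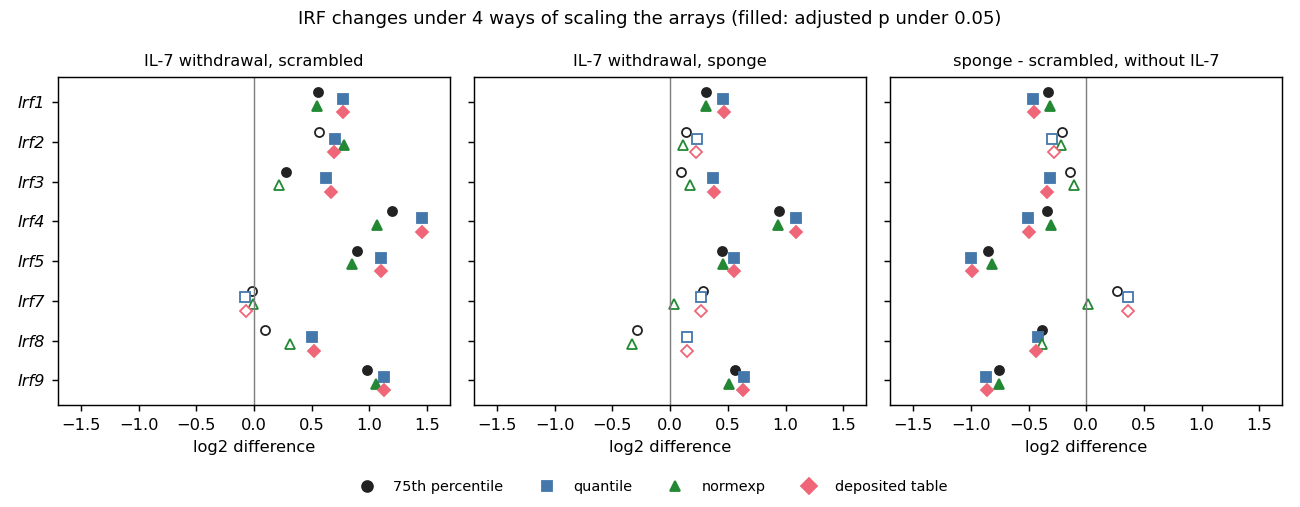
Log2 change of each IRF gene under 4 ways of scaling the arrays (horizontal axis, 1 panel per comparison, filled points for an adjusted p under 0.05). Irf4, Irf5 and Irf9 keep their direction and their calls in all 4, while Irf8 in sponge cells goes from -0.28 to 0.14 with quantile normalization.

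The genes around the IRFs were read from 5 lists that hold no member of the family, as counts against the same background. That background was 20.7% of all genes called higher and 27.4% lower on withdrawal in scrambled cells, and 7.90% and 15.2% in sponge cells. For the sponge without IL-7 it was 16.7% higher and 15.3% lower, and with IL-7 0.314% and 0.815%. Of 19 tested sensors and adaptors upstream of IRF3, IRF5 and IRF7, 8 were called higher and 3 lower on withdrawal in scrambled cells, 7 and 0 in sponge cells. The median changes of the 5 lists, in the order given here, were 0.26, 0.24, 0.34, 0.32 and 0.39 in scrambled cells, against -0.02 over all genes, and 0.17, 0.11, 0.15, 0.13 and 0.22 in sponge cells, against -0.06. For the sponge without IL-7 they were -0.31, -0.17, -0.16, -0.24 and -0.26, against -0.05. Sting1, the adaptor of cytosolic DNA sensing, rose by 1.45 in scrambled cells (adjusted p = 0.000248) and 0.74 in sponge cells (0.00394). Traf6, a ubiquitin ligase of Toll-like receptor signalling, rose by 1.74 (0.000299) and 0.96 (0.00452) on its brightest probe, and its 3 kept probes ranged from 0.73 to 1.74 and from 0.57 to 0.96. Zbp1, a sensor of Z-form nucleic acid, rose by 0.89 (0.00589) and 1.29 (0.00520). Tlr7, the receptor for single-stranded RNA, fell by 1.28 in scrambled cells (0.00169) and changed by -0.17 in sponge cells (0.510). Without IL-7, 3 of the 19 were higher and 7 lower in sponge cells, with Traf6 at -1.18 (0.00145; probes from -1.18 to -0.61) and Sting1 at -0.93 (0.00133). The DNA sensor gene Cgas was higher by 1.89 (0.00129) on its brighter probe, but its 2 kept probes ranged from -0.28 to 1.89. With IL-7, 0 of the 19 were called, with 2 higher and 6 lower at an unadjusted limma p under 0.05.

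Of the 12 interferon receptor and JAK-STAT genes, 4 rose on withdrawal in scrambled cells and 2 in sponge cells, and 0 fell by the adjusted or the unadjusted p. With quantile normalization 7 were called higher in scrambled and 1 in sponge cells. Socs1, the inhibitor of JAK signalling, rose by 2.50 (adjusted p = 0.000235) and 1.51 (0.00282). Stat2, whose product binds IRF9, was at -0.14 (0.180) and -0.05 (0.714). The type I receptor chains were not called in scrambled cells, with Ifnar1 at 0.53 (0.0681) and Ifnar2 at -0.11 (0.727). Without IL-7 4 of 12 were lower in sponge cells and 0 higher, among them Socs1 at -1.32 (0.00155), Stat3 at -0.72 (0.00198) and Ifngr2, a chain of the interferon gamma receptor, at -0.63 (0.00419). With IL-7, 0 of 12 were called, with 4 lower at an unadjusted limma p under 0.05.

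The interferon-stimulated genes moved both ways, as did the genes of the whole array. Of 35 listed, 28 passed the filter, and on withdrawal 10 were higher and 5 lower in scrambled cells, 6 and 1 in sponge cells. With quantile normalization the counts were 16 and 4, then 9 and 1. Mx2, an antiviral GTPase, rose by 1.26 (adjusted p = 0.00367) and 1.08 (0.0158), though the second was 0.18 with normexp (0.193). Gbp2, a guanylate-binding protein, rose by 0.86 (0.000778) and 0.61 (0.00757). Its relative Gbp3 rose by 0.99 in scrambled cells (0.000638) and stood at 0.14 in sponge cells (0.336). Ifit2, an RNA-binding antiviral protein, fell by 1.1 (0.000671), and Tap1, the peptide transporter of antigen presentation, fell by 0.54 (0.00188). Without IL-7, 4 were higher and 7 lower in sponge cells: Tap1 was higher by 0.82 (0.00133), Ifit2 by 0.54 (0.0128), while Gbp3 was at -0.93 (0.00158) and Gbp2 at -0.84 (0.00173). With IL-7, 0 of 28 were called, with 4 higher and 3 lower at an unadjusted limma p under 0.05.

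IRF partners and co-regulators counted 17 tested genes, of which 9 rose and 2 fell on withdrawal in scrambled cells, 3 and 0 in sponge cells. In sponge cells the counts were 7 and 0 with quantile normalization and 2 and 1 with normexp. Jun, a subunit of AP-1, rose by 1.84 (adjusted p = 0.00199), and Batf, which pairs with Jun proteins and recruits IRF4 and IRF8, rose by 1.22 (0.00105) in scrambled cells. Junb, another AP-1 subunit, at 1.19 (0.0424), and the co-repressor gene Irf2bp1, at -0.42 (0.0279), were called there but not with quantile normalization (0.0648 and 0.0591). Spib, encoding the ETS partner Spi-B, rose by 0.35 (0.0123) in scrambled cells, and Spi1, encoding PU.1, was at 0.19 (0.189). In sponge cells Spib was at 0.28, which passed at 0.0496 but not with the replicate block (0.0715). Without IL-7, 1 was higher and 4 lower in sponge cells, with Spib at -0.41 (0.0107) and Nfatc1 at -0.53 (0.00475) on its brighter probe and -0.08 on the other. With quantile normalization it was 1 higher and 8 lower. Crebbp, a histone acetyltransferase, was lower in sponge cells by 1.12 with IL-7 (0.00847) and 1.52 without (0.00111) on its brighter probe, but its other kept probe gave -0.09 and -0.30.

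Genes described downstream of IRF4 and IRF8 in pre-B cells counted 15 tested genes. On withdrawal 11 rose and 2 fell in scrambled cells, and 6 rose and 2 fell in sponge cells (9 and 1 with quantile normalization). Igkc, the kappa light chain constant gene, rose by 2.77 (adjusted p = 0.000270) and 2.63 (0.00164). Rag1, the recombinase, rose by 3.59 (0.000372) and 3.43 (0.00226), and Ikzf3, encoding Aiolos, rose by 0.52 (0.00452) and 0.46 (0.0171). Ikzf1, encoding Ikaros, was called at 0.37 (0.0118), with 3 kept probes from 0.03 to 1.04. Cxcr4, a chemokine receptor that draws pre-B cells away from IL-7, was called at 0.28 (0.0417) but not with the replicate block (0.0559). Myc, which IRF4 and Ikaros family factors are described as restraining, fell by 2.67 (0.000235) and 1.57 (0.00160). Without IL-7, 1 was higher and 7 lower in sponge cells, with Rag1 at -2.56 (0.00173), Ikzf3 at -0.61 (0.00441), Cxcr4 at -0.37 (0.0231) and Igkc at -0.17 (0.494). With IL-7 only Rag1, at -2.39 (0.0253), and Rag2, at -1.56 (0.0287), were called in this list. The list holds Blnk, the gene for SLP-65, whose probe gave group means of 7.16 to 8.22 in cells labelled as lacking it. Blnk is in the counts above. It was called higher on withdrawal in scrambled (0.73, 0.000826) and sponge cells (0.51, 0.00827), and lower for the sponge without IL-7 (-0.55, 0.00390). Where the probe lies relative to the deleted part is not known here.

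**Figure D4:**
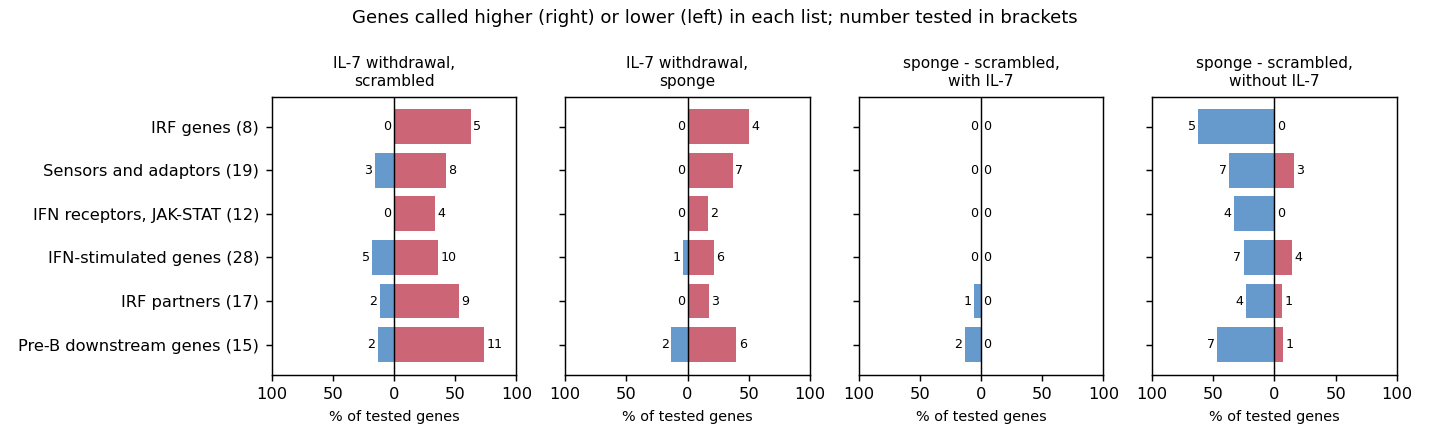
Percent of the tested genes of each list called higher (right) and lower (left) in 4 comparisons, with the number of genes at the end of each bar and the number tested in brackets. In scrambled cells the family counts 5 of 8 higher on withdrawal and the pre-B list 11 of 15. Without IL-7 the sponge gives 5 of 8 and 7 of 15 lower. Of all genes, 20.7% were higher in the first comparison and 15.3% lower in the second.

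Of the genes with a symbol and signal on all 8 arrays, 12550 in number, those with the profile closest to a member were found by the root mean square difference of centred log2 values over the 8 arrays. This was done for Irf4, Irf5 and Irf9, whose group means span at least 1 unit. Closest to Irf4 were Rpl3l (0.06), Slc37a2 (0.09) and Sik1 (0.10). Closest to Irf5 were Grk4, Lmbrd1 and Washc2 (0.05 each), and to Irf9 Wdr81 and 2810013P06Rik (0.04 each) and Stk3 (0.05). The likeness is a description over arrays that share their groups.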

How the data were processed

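Total RNA of 8 wk3 cultures was labelled with Cy3 and read on 1-colour Agilent arrays. The deposited scanner tables hold a processed intensity per spot on a linear scale, background-subtracted and detrended within the array per the file headers, and not scaled between arrays. The software was Agilent Feature Extraction (10.7.1.1 per the submitters' processing notes, 10.7.3.1 per the file headers). A second deposited table, the series' values, is also linear intensity and evenly distributed over the arrays; how it was made is not given in the sources used here.

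Control and outlier spots were left out, and log2 intensity was taken relative to the 75th percentile of its array and averaged per probe. To be kept, a probe had to exceed background clearly in both replicates of some group (30987 of 55681), and the brightest kept probe stood for its gene. Group means were fitted in limma 3.58.1 (R 4.3.3) (residual degrees of freedom 4, prior 1.812), two-sided, with Benjamini-Hochberg adjustment over 21339 genes. It was tested on simulated data. Alternatives were quantile scaling, normexp, the deposited table, other probe filters, the mean over probes, outlier spots kept, array weights, a trended robust prior, a replicate block and leaving out each array.

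The study's design text ties each replicate number to one experiment, so the numbers pair the groups; the replicates' deviations correlated at 0.0173 to 0.130 between groups. The members and lists were chosen with earlier results of these data known. Beside the members, named genes were up to 3 called genes of largest change per list and comparison, 10 fixed genes, and the 3 genes closest in profile to a member; not all are given, and 1 fixed gene is not reported here. Probe positions are mm9 as deposited. With no genome of that build used here, no exon or UTR was assigned.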

Additional observations from a re-analysis of the deposited data

Results flagged for a closer look

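For 7 genes of the lists around the IRF family, withdrawal of IL-7 changed the level differently in sponge and scrambled cells, by the limma test of the difference itself. The value is the change in sponge cells minus that in scrambled cells on the log2 scale. It was positive for Cgas (1.33, adjusted p = 0.0343), Myc (1.1, 0.0306), Psmb9, a subunit of the immunoproteasome (0.52, 0.0448), and Tap1 (0.51, 0.0479). It was negative for Socs1 (-0.99, adjusted p = 0.0430), Gbp3 (-0.85, 0.0328) and Sting1 (-0.71, 0.0337). The 2 kept probes of Cgas gave -0.17 and 1.33, and those of Psmb9 0.16 and 0.52. With the replicate number as a block all 7 missed the threshold, at adjusted p values of 0.0509 to 0.0750. No IRF gene is among them. Of the 19 sensors and adaptors 1 was positive and 1 negative, and of the 12 receptor and JAK-STAT genes 0 and 1. Of the 28 interferon-stimulated genes it was 2 and 1, of the 17 partners 0 and 0, and of the 15 pre-B genes 1 and 0. Of all genes 5.27% were called in this comparison, 4.32% positive and 0.951% negative.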

How the results depend on the processing

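Across the 10 alternatives that kept all arrays, every rise of Irf4 and Irf9 on withdrawal, and the lower Irf5 and Irf9 of sponge cells without IL-7, kept direction and call. With quantile scaling, withdrawal raised 7 members under the scrambled and 5 under the miR-15 construct, and 6 were lower for the sponge without IL-7. Signs turned for Irf8 on withdrawal in sponge cells, at 0.14 (quantile) and 0.15 (deposited table). For the sponge with IL-7 they turned for Irf3 at -0.067 (quantile), -0.055 (normexp) and -0.050 (deposited table), for Irf7 at 0.021 and 0.026 and for Irf8 at -0.058 and -0.061 (quantile and deposited table); none of these was called and the cause was not tested.

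Genes called for the sponge with IL-7 went from 241 to 388 (normexp), 82 (no filter), 425 (filter on all 8 arrays), 151 (replicate block), 92 (array weights) and 1025 (trended robust prior). Those for the difference of withdrawal changes went from 1125 to 0 (no filter), 1711 (all 8), 0 (replicate block), 603 (array weights) and 2357 (trended robust prior), and those for withdrawal in sponge cells from 4937 to 2643 (no filter). Without the filter, 2 members were higher on withdrawal in sponge cells and 2 lower for the sponge without IL-7. With the trended robust prior, 1 was lower on withdrawal in sponge cells (Irf8), 2 lower for the sponge with IL-7 and 2 for the difference (Irf5 and Irf9). With quantile scaling or the deposited table, 1 was lower for the difference (Irf9). The replicate block ended 1 member call, Irf1 on withdrawal in sponge cells (0.0594). Of called genes, 34.2% were higher on withdrawal in sponge cells, against 51.2% with quantile scaling; for the sponge with IL-7 it was 27.8%, against 40.5% with normexp.

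Leaving out each array gave 6769 to 10356 genes called on withdrawal in the scrambled control and 1705 to 5129 with the sponge, 38 to 1352 for the sponge with IL-7, 3417 to 7443 without it and 0 to 1617 for the difference; a lone array is then assumed to vary like the other groups. Members higher on withdrawal were 4 to 5 and 2 to 4, and members lower for the sponge without IL-7 2 to 5. Changes whose sign turned, none of them called, were Irf8 and Irf7 on withdrawal in scrambled cells (-0.024 to 0.22 and -0.23 to 0.20) and, for the sponge with IL-7, Irf2 (-0.10 to 0.53), Irf4 (-0.18 to 0.017), Irf7 (-0.11 to 0.039) and Irf8 (-0.12 to 0.12).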
